A study of Mus musculus with 8 samples.

Results

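The replication-dependent histone genes encode the H1, H2A, H2B, H3 and H4 proteins that package newly copied DNA. Their levels were read from RNA sequencing of total mouse splenocytes. The members are the genes of the count matrix whose Ensembl identifier has, in GENCODE M21 on GRCm38, a protein-coding symbol that starts with Hist1h, Hist2h, Hist3h or Hist4h. This rule took 65 of the 51826 genes in the matrix: 6 of type H1, 18 of H2A, 16 of H2B, 12 of H3 and 13 of H4. The annotation holds 67 such genes, and Hist1h2bm and Hist1h2bh were not analysed here.

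The study asked how all-trans retinoic acid (tRA), the active metabolite of vitamin A, acts on the immune system of mice used as a model of lupus. The mice sequenced here were 8 BALB/c mice harvested at 3 months of age with no pristane, the agent that induces lupus in this model. The 4 tRA mice had tRA at 1 mg/kg of body weight each day from weaning, and the other 4 were controls. According to the methods text, all mice were female and canola oil was the vehicle for tRA. That the sequenced controls received vehicle is stated in a figure caption of the study. The treatment text of the labels is the same for all 8 samples and names tRA, so the groups follow the sample titles. Total counts on genes were 37539631, 31833853, 35924683 and 30919272 in control mice 1 to 4, and 33755595, 31810417, 35165876 and 32042754 in tRA mice 1 to 4.

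Transcription of these genes is coupled to S phase, when a cell needs histones to cover its new DNA. Most of their mRNAs end in a short stem-loop bound by the protein SLBP in place of a poly(A) tail, and they are broken down when DNA synthesis stops. The library kit named in the labels is known to capture RNA by its poly(A) tail, which few stem-loop mRNAs have, and not to mark strand, though the labels state neither. Some of these genes also give longer, polyadenylated transcripts in resting and differentiated cells. In the spleen, dividing cells include activated B cells and the erythroid and myeloid precursors of the red pulp. The counts here are of RNA over all splenocytes, so fewer cells that express a histone gene and less RNA in each cell cannot be told apart.

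The 65 genes held 15291 of the 268992081 counts of the 8 libraries, a share of 56.8 CPM (counts per 10⁶ counts of a library). Hist1h1c alone had 39.6% of these counts, and the 5 members with most counts (Hist1h1c, Hist2h2be, Hist3h2a, Hist1h2bc and Hist2h4) had 69.6%. By type, H1 held 42.7% of the histone counts, H2B 25.1%, H4 17.4%, H2A 11.7% and H3 3.09%. Counts were low for most members. Averaged over the libraries, 5 members had 100 or more counts, 16 had 10 to under 100, 34 had fewer than 10 but more than 0, and 10 had 0 in every library. A count of 0 allows up to 3 counts over the 8 libraries, or 0.0112 CPM, and this limit covers counting error only. The 10 members at 0 were Hist1h2aa, Hist1h2ao, Hist1h2ap, Hist1h2ba, Hist1h2br, Hist2h2aa1, Hist2h2aa2, Hist2h2bb, Hist2h3b and Hist2h3c1. Of these, Hist1h2aa and Hist1h2ba are known as testis histones, and so is Hist1h1t, which had 5 counts in all.

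Levels of different genes were compared as CPM, from here on with library sizes normalized by TMM, per kilobase of exon, averaged over the 8 mice. On this scale the order was Hist1h1c at 14.4, Hist1h4i at 3.7, Hist1h2bc at 2.68, Hist3h2a at 2.5, Hist2h2be at 2.11 and Hist2h4 at 1.91. Hist1h2bg (1.77), Hist3h2ba (1.75), Hist1h4h (1.43) and Hist1h4n (1.18) came next, and every other member was under 1. The spread between mice separated Hist1h1c from all other members, while neighbours lower in the order, such as Hist1h2bg and Hist3h2ba, differed by far less than the spread of either gene.

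The comparison of tRA with control mice asks whether a daily dose of tRA changed these levels. The filter on low counts kept 16484 genes, among them 22 of the 65 histone genes, which held 95% of the histone counts. These were 4 H1, 3 H2A, 6 H2B, 2 H3 and 7 H4 genes. The other 43 members, 10 of them at 0, were not tested, and the 33 with counts had from 1 to 87 over all libraries. In edgeR's quasi-likelihood test (Benjamini-Hochberg), 0 of the 22 had an adjusted p under 0.1, as had 0% of all genes tested, and the lowest adjusted p of a member was 0.761. At an unadjusted p under 0.05 there were again 0 members, against 6.49% of all genes tested (3.55% lower and 2.94% higher with tRA). DESeq2 and limma-voom each also gave 0 members with an adjusted p under 0.1. Over all genes, DESeq2 called 27 of 29817 fitted and limma-voom 1 of 16484. None of the 10 H3 members that DESeq2 fitted had an adjusted p, so these could not be called. At an unadjusted p under 0.05 DESeq2 and limma-voom each gave 2 members, Hist1h1c and Hist3h2a. These were 3.64% of 55 members against 4.18% of all genes with DESeq2, and 9.09% of 22 against 6.75% with limma-voom. In 0 members did all tRA mice lie below all control mice, against 1.63% of all genes tested, and in 0 did they lie above, against 1.91%.

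Of the 22 members tested, 17 (77.3%) had a negative log2 fold change with tRA, against 49.7% of all genes tested. Their median was -0.205, against 0.001 over all genes tested. The fold changes ran from -0.74 for Hist1h4d to 0.52 for Hist2h2ac, with standard errors from 0.133 to 0.573, and in 12 of the 22 the standard error was larger than the fold change itself. Members share regulators, mice and in part sequence, so they are not independent replicates, and no test over the list was made. Without tRA mouse 3 the median was nearer to 0, at -0.076, with 15 of 23 negative. Of the 22 members, 9 (40.9%) were lowest of all 8 libraries in tRA mouse 3, where 14.5% of all genes tested were lowest, and 10 (45.5%) were highest in control mouse 3, where 21.7% of all genes tested were highest.

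**Figure D1:**
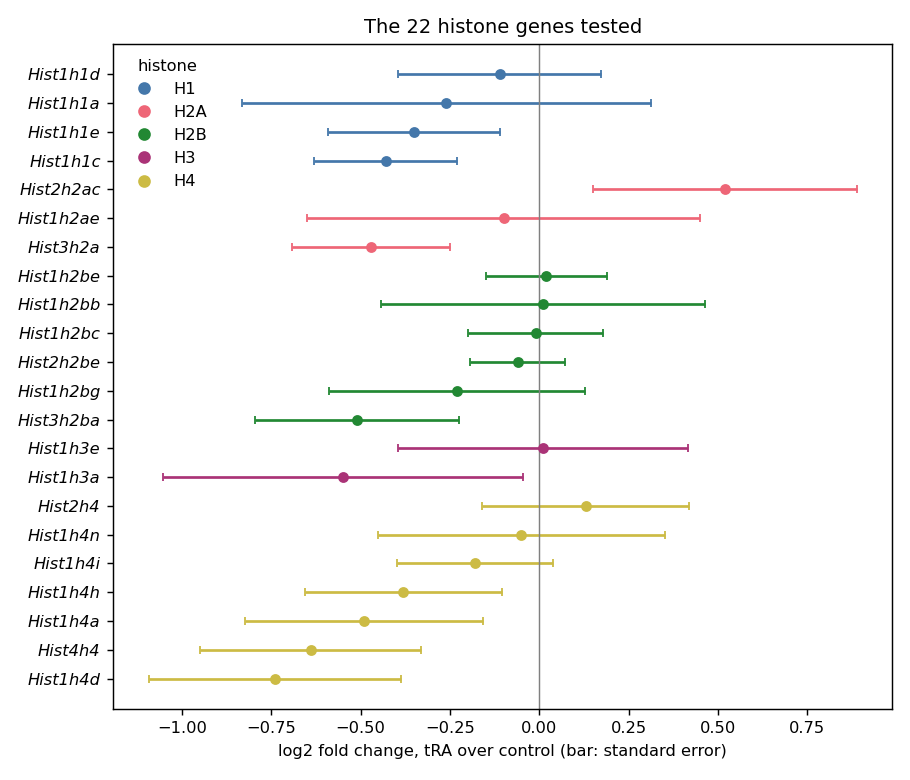
Log2 fold change of tRA over control for each of the 22 histone genes tested, with bars for 1 standard error and colours for the histone type. The points run from -0.74 to 0.52, 17 lie below 0, and 12 have a bar longer than their distance from 0.

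The H1 genes encode the linker histones, which bind the DNA between nucleosomes. Hist1h1c (chr13:23738808-23740367, plus strand) held 92.7% of the H1 counts. It had 32.9, 26.1, 23.4 and 20.7 CPM in the control mice and 27.4, 17.9, 13.9 and 17.5 CPM in the tRA mice. The groups overlapped through tRA mouse 1, which lay above 3 of the 4 control mice, while the other tRA mice lay below every control mouse. The means were 25.8 ± 5.22 CPM in controls and 19.2 ± 5.74 CPM with tRA (SD, 4 mice each). The log2 fold change was -0.43 with a standard error of 0.199, an unadjusted p of 0.0559 and an adjusted p of 0.761 in edgeR's quasi-likelihood test (Benjamini-Hochberg). Without tRA mouse 1 the log2 fold change was -0.65 with an adjusted p of 0.215, the lowest it had under any setting, and without control mouse 1 it was -0.29. Hist1h1e, the next H1 gene by level, had 0.758, 0.996, 1.36 and 1.13 CPM in controls and 0.886, 0.85, 0.786 and 0.794 CPM with tRA. Its tRA mice lay close together and within the range of the controls, whose lowest mouse was below all of them (log2 fold change -0.35, standard error 0.241, unadjusted p 0.172 in edgeR's test). Without control mouse 3 it was -0.22. All 4 H1 genes tested had a negative log2 fold change, with Hist1h1a at -0.26 and Hist1h1d at -0.11 besides these, and their median was -0.307. Without tRA mouse 3 the median was -0.189 and Hist1h1a turned to 0.04. Without control mouse 4 Hist1h1a was at -0.53, and Hist1h1d ranged from -0.23 without tRA mouse 4 to -0.00 without control mouse 3. Without Hist1h1c, the summed level of the other 5 H1 genes was 1.41, 2.05, 2.51 and 1.84 CPM in controls and 1.74, 1.54, 1.33 and 1.74 CPM with tRA, and the groups overlapped.

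The H2A and H2B proteins pair as dimers on the outside of the nucleosome core. Among the 18 H2A genes, 80.4% of counts were on Hist3h2a (chr11:58954685-58956830, plus strand), 1 of the 2 members of the small Hist3 cluster. Its level was 8.23, 5.51, 5.09 and 6.01 CPM in control mice and 5.93, 5.16, 3.2 and 3.73 CPM in tRA mice. Control mouse 1 was the highest and tRA mice 3 and 4 were below every control, while tRA mice 1 and 2 lay among the controls. The log2 fold change was -0.47 with a standard error of 0.221 and an unadjusted p of 0.0589, and the adjusted p was 0.77 in edgeR's quasi-likelihood test (Benjamini-Hochberg). Without control mouse 1 it was -0.30. Its exons share 708 bases with those of Trim17, which lies on the same strand and had 91 counts against 1441 for Hist3h2a, so counts in the shared stretch are uncertain. Its neighbour Hist3h2ba, an H2B gene, had a log2 fold change of -0.51 with a standard error of 0.286, and -0.34 without tRA mouse 2. Hist2h2ac, on chromosome 3, went the other way, with 0.244, 0.218, 0.26 and 0.452 CPM in controls and 0.244, 0.535, 0.407 and 0.489 CPM with tRA. These values rest on 7 to 17 counts per library, tRA mice 1 and 3 lay among the controls, and the log2 fold change was 0.52 with a standard error of 0.369 and an unadjusted p of 0.191 in edgeR's test. Without control mouse 4 it was 0.79. Without Hist3h2a, the summed level of the other 17 H2A genes was 1.3 ± 0.273 CPM in controls and 1.34 ± 0.331 CPM with tRA.

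Hist2h2be, the most counted of the 16 H2B genes, had 5.66, 5.94, 6.1 and 4.91 CPM in controls and 5.62, 6.17, 4.83 and 5.1 CPM with tRA. Hist1h2bc had 3.52, 3.17, 3.06 and 2.65 CPM in controls and 4.03, 2.87, 2.36 and 3.09 CPM with tRA, so that its highest and its lowest mouse were both tRA mice. Hist1h2be had 2.44, 2.68, 3.21 and 2.78 CPM in controls and 2.69, 2.58, 2.55 and 3.45 CPM with tRA, with tRA mouse 4 apart from the other 3. The log2 fold changes of these genes were -0.06, -0.01 and 0.02, with standard errors of 0.133, 0.189 and 0.169, and their groups overlapped throughout. Hist1h2bc was negative in 11 of 16 settings, from -0.17 without tRA mouse 1 to 0.10 without tRA mouse 3, and it was 0.01 with library size alone in place of TMM. Hist2h2be ranged from -0.13 without tRA mouse 2 to -0.01 without tRA mouse 3, and the sign of Hist1h2be turned without control mouse 1 (-0.04) or tRA mouse 4 (-0.09). Over all 16 H2B genes the sum was 14.7 ± 0.642 CPM in controls and 13.9 ± 1.56 CPM with tRA. Exons of Hist1h2be share 496 bases with those of Hist1h1e on the same strand, which leaves the counts of both in that stretch uncertain.

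H3 and H4 form the core tetramer of the nucleosome. The 12 H3 genes were the least counted type, and the 2 that were tested had few counts. Hist1h3a had 0.217, 0.529, 0.982 and 0.517 CPM in controls and 0.702, 0.378, 0.271 and 0.183 CPM with tRA. Control mouse 3 was highest, tRA mouse 4 lowest, and the groups overlapped, with a log2 fold change of -0.55 and a standard error of 0.504. It was -1.01 without tRA mouse 1 and -0.13 without control mouse 3. Hist1h3e had 0.189, 0.373, 0.462 and 0.162 CPM in controls and 0.367, 0.346, 0.244 and 0.244 CPM with tRA, and its log2 fold change of 0.01 (standard error 0.406) ranged from -0.18 without control mouse 4 to 0.30 without control mouse 3.

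Among the 13 H4 genes, Hist2h4 and Hist1h4i held 31.1% and 27.2% of the counts. Hist2h4 had 2.38, 3.14, 2.25 and 4.1 CPM in controls and 1.77, 3.72, 2.93 and 4.55 CPM with tRA. Both its lowest and its highest mouse were tRA mice, and its log2 fold change was 0.13 with a standard error of 0.289, ranging from -0.08 without tRA mouse 4 to 0.33 without tRA mouse 1. Hist1h4i had 3.36, 3.05, 3.03 and 1.97 CPM in controls and 3.3, 2.42, 1.95 and 2.41 CPM with tRA, with both groups spread over nearly the same range (log2 fold change -0.18, standard error 0.219, from -0.34 without tRA mouse 1 to -0.08 without tRA mouse 3). Hist1h4d had 0.677, 1.15, 1.79 and 0.84 CPM in controls and 0.794, 0.409, 0.841 and 0.611 CPM with tRA. Control mice 2 and 3 lay above all tRA mice, and the others lay among them. Its log2 fold change was -0.74 with a standard error of 0.353 and an unadjusted p of 0.0608, and the adjusted p was 0.775 in edgeR's quasi-likelihood test (Benjamini-Hochberg); without control mouse 3 it was -0.42. Hist4h4, the only member of the Hist4 cluster on chromosome 6, had -0.64 with a standard error of 0.308, and -0.35 without control mouse 3. Of the 7 H4 genes tested, 6 had a negative log2 fold change, and their median was -0.381, or -0.219 without control mouse 3.

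**Figure D2:**
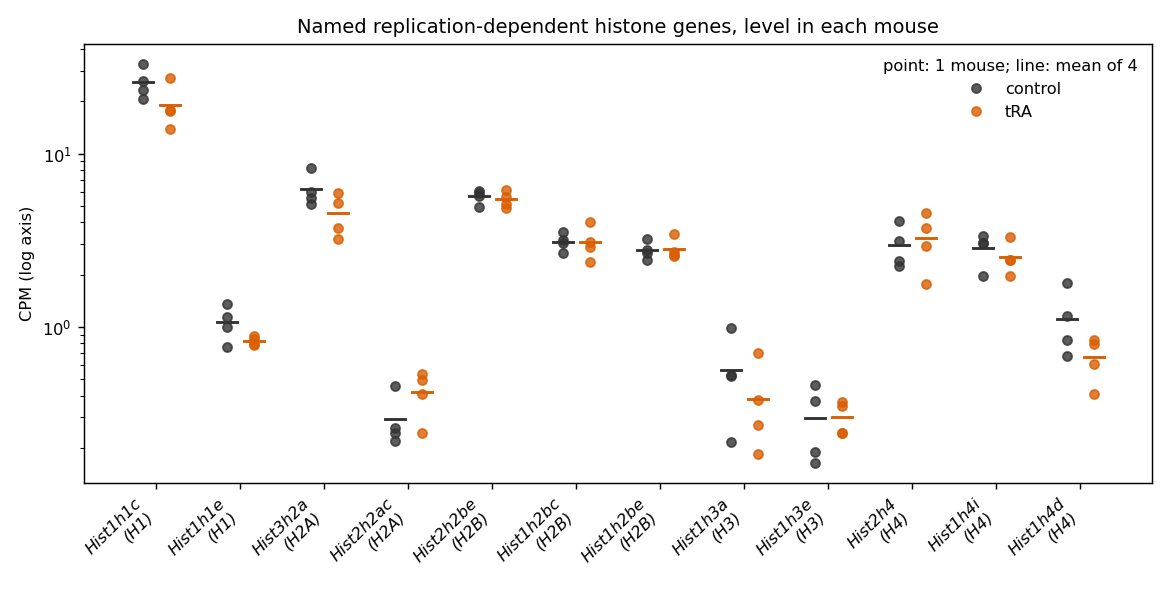
Level in CPM (log axis) of the 12 named histone genes in each of the 4 control and 4 tRA mice, 1 point per mouse, with a line at each mean. For each gene the groups overlap, and Hist1h1c, from 13.9 to 32.9 CPM, lies above all others.

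Summed over all 65 members, the level was 69.6, 62, 62.8 and 56 CPM in control mice and 61.5, 51.1, 40.7 and 51.5 CPM in tRA mice. The groups overlapped: tRA mouse 1 was above control mouse 4, and tRA mouse 3 was the lowest of all. Without Hist1h1c the sum was 36.7, 35.9, 39.4 and 35.3 CPM in controls and 34.1, 33.2, 26.8 and 34 CPM with tRA. Here each tRA mouse was below each control mouse, though all but tRA mouse 3 were close below control mouse 4; the sum was chosen after its values were seen, and no test was made. By cluster, the 52 genes of Hist1 on chromosome 13 gave 44.9 ± 5.34 CPM in controls and 35.9 ± 7.6 CPM with tRA, and the 10 genes of Hist2 on chromosome 3 gave 9.16 ± 0.61 and 9.22 ± 1.42 CPM. The 2 genes of Hist3 on chromosome 11 gave 7.47 ± 1.54 and 5.39 ± 1.42 CPM. In each cluster the groups overlapped.

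The 3′ ends of the members were compared with their counts, because the stem-loop decides how a histone mRNA ends. A stem-loop was searched for as a 6-base-pair stem that opens with GG around a 4-base loop that opens with TTT, downstream of the stop codon of the annotated transcripts. It was found in 42 of the 65 members, from 21 to 58 bases after the stop (median 31.5). Of the 23 others, 17 have fewer than 50 annotated bases after the stop, and the remaining 6 are Hist2h2be, Hist1h2bc, Hist1h2bq, Hist1h2br, Hist1h3g and Hist1h4a. Among 44730 coding transcripts of other genes with annotated sequence after the stop, 11 (0.0246%) held such a stem-loop within 150 bases. These came from 8 genes: H2afx, Hist1h2bm, Hist1h2bh, H2bfm, Cdc40, Dgkq, Tal1 and Ttc14. The 42 members used 6 versions of the 16 bases. The most common version was in 24 members of types H1, H2A, H2B and H3 and in 0 H4 genes. All 11 H4 genes with a stem-loop had 1 of 3 other versions, which the other types lacked. The windows below, from the GENCODE M21 transcripts, show each version in 1 or 2 members, with the stem-loop in capitals and up to 7 bases on each side.
Hist1h1c: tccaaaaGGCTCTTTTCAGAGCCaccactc
Hist3h2a: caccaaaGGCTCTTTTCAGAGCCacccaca
Hist1h3e: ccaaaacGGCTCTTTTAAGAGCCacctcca
Hist2h2ac: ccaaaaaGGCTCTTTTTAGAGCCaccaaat
Hist1h4d: aaccaaaGGCCCTTTTCAGGGCCactacct
Hist2h4: ccctaacGGCCCTTTTTAGGGCCaaccaca
Hist1h4b: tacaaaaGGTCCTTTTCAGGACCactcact

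The annotation places the end of some members just past the stem-loop and that of others far beyond it. Of the 42 members with a stem-loop, 21 have more than 100 annotated bases after it, up to 4884 in Hist1h1d, and 14 of these 21 hold a poly(A) signal (AATAAA or ATTAAA) there, against 1 of the 21 with shorter ends. A longer stretch also gives more places for such a match, and the part of length in this difference was not tested. Members were then divided into 25 that run more than 100 bases past the stem-loop, or more than 200 past the stop where none was found, and 40 with shorter annotated ends; these limits were chosen after the values were seen. The 25 long members held 92% of the histone counts, and 15 of them were tested. The 40 short members held 8%, 7 were tested and 8 were at 0. The median level was 0.396 CPM per kilobase in the long members and 0.0873 in the short ones. The short members summed to 4.94 ± 0.808 CPM in controls and 4.19 ± 0.537 CPM with tRA, and the long ones to 57.6 ± 5.74 and 47 ± 8.07 CPM, with the groups overlapping in both. Longer annotated ends also offer more bases on which a read can be counted, and the part of this in the difference was not tested.

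**Figure D3:**
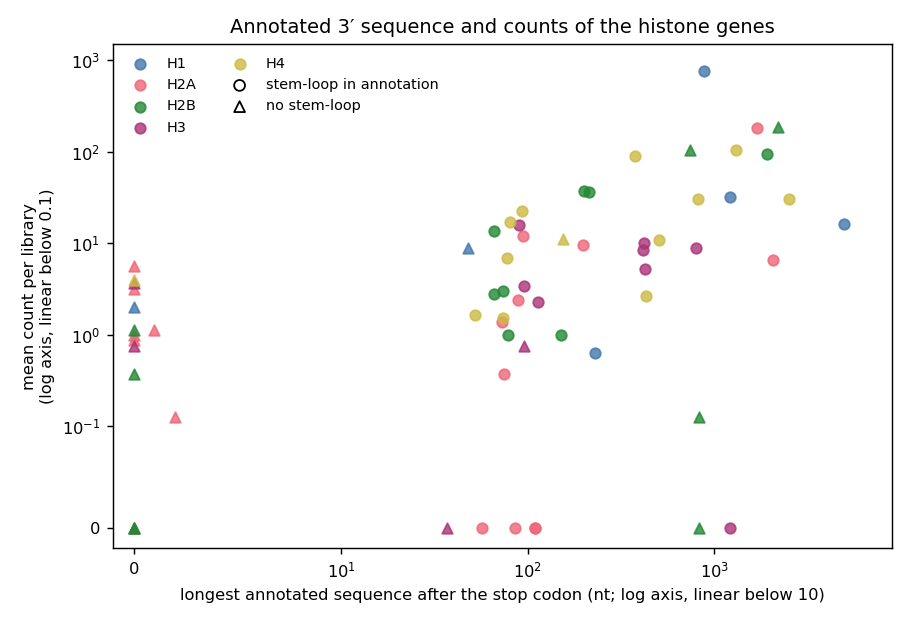
Mean count per library of each of the 65 histone genes against the longest annotated sequence after its stop codon, with colours for the histone type, circles for genes with an annotated stem-loop and triangles for genes without. The 40 genes with short annotated ends reach at most 22.6 counts per library, and Hist1h1c, at 757, is the highest.

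Members also share sequence, which limits how far reads can be assigned to 1 gene. Over 50-base windows of the longest transcript, 16 members had under 25% of windows in common with another gene, 28 had 25 to under 75% and 21 had 75% or more. Of these groups, 9, 12 and 1 were tested. Of the 21 members that share most, 8 were at 0, and of the 6 that share every window, 5 were at 0. Hist1h1c shared 8.54% of its windows and Hist2h2be 0, while Hist1h4n, the member tested with the largest share, had 85.6%, mostly in common with Hist1h4m. Every window of Hist2h2aa2 is also found in Hist2h2aa1, and annotated antisense genes also cover their exons: Gm20632 over Hist2h2aa2 had 535 counts, and Gm20633 over Hist2h2aa1 had 140. Hist2h3b and Hist2h2bb, both at 0, lie opposite Gm20628, which had 197. If the libraries carry no strand, reads from such a pair cannot be told apart, and a count of 0 at these 4 genes then does not show that they were silent. Hist2h2bb also shares 226 bases with Gm42743 on the same strand (940 counts). The exons of Hist2h3c1, at 0, lie wholly within Gm20634 on the same strand, which had 0 counts as well. Reads from these exons cannot be assigned to 1 of the 2 genes, whether or not the libraries carry strand. The 0 of Hist2h3c1 therefore does not show that it was silent. In 17 H2A genes an annotated miRNA also lies opposite an exon, and all these miRNA entries had 0 counts.

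The promoters of 60 of the 65 members were matched in RefSeq GRCm38.p6, as 250 bases before and 50 after the start. Those of Hist1h2bc, Hist1h3a, Hist1h3f, Hist2h2be and Hist2h4 were not matched. Motifs were searched as exact letters on both strands. CCAAT was in 51 of 60 (85%), against 37.4% of 32817 promoters of all genes, and in every H1, H2A, H2B and H3 promoter but in 3 of 12 H4 promoters. TATAAA was in 35 (58.3%, all promoters 13.6%). The octamer ATTTGCAT was in 7 of 18 H2A and 5 of 14 H2B promoters and in 0 of the other types (all promoters 1.74%). AAACACA, known from H1 promoters, was in 5 of 6 H1, 2 of 18 H2A and 1 of 14 H2B promoters (all promoters 7.19%). In 10 pairs an H2A and an H2B gene stand head to head with overlapping promoter windows, so that the same stretch lies before both, and the windows of such a pair are not independent. A match is a description of letters and shows no binding. The first stretch below lies before Hist1h1c, the most abundant member (chr13:23738557-23738806, plus strand). The second runs from the start of Hist1h2ae on the minus strand to that of Hist1h2bg on the plus strand (chr13:23571221-23571399) and is given on the plus strand. Capitals mark any of the 4 motifs above or its reverse complement.
Hist1h1c: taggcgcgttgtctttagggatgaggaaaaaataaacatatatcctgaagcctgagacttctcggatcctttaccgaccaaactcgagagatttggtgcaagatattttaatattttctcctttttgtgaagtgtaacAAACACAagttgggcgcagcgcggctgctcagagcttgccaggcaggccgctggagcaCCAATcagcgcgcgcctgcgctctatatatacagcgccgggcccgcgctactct
Hist1h2bg: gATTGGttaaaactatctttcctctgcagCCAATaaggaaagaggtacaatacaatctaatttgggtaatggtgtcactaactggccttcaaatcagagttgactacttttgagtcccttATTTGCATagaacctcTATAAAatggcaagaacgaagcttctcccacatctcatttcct
From this shared stretch, Hist1h2bg reached 1.77 CPM per kilobase and Hist1h2ae 0.414. Their log2 fold changes were -0.23 and -0.10, with standard errors of 0.359 and 0.551. Hist1h2bg had 1.83 CPM in tRA mouse 4 against 0.58, 0.756 and 0.868 in the other tRA mice. Without tRA mouse 4 the log2 fold change of Hist1h2bg was -0.68 (unadjusted p 0.0457 and adjusted p 0.999 in edgeR's test). It was -0.04 without tRA mouse 1, and Hist1h2ae ranged from -0.44 without tRA mouse 4 to 0.25 without control mouse 3.

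Factors that make, process and deposit histones were read from a list of 32 symbols, of which 30 have a row and were tested (the other 2 are older names of the same genes). Of these, 17 had a positive and 13 a negative log2 fold change, the median was 0.019, and 1 (3.33%), Lsm11, had an unadjusted p under 0.05, against 6.49% of all genes tested. With library size alone 23 were positive, with a median of 0.051 against 0.031 over all genes tested. With 1 mouse left out the median ran from 0.009 without control mouse 2 to 0.031 without tRA mouse 1. In the fit without tRA mouse 1, 2 factors (6.67%) had such a p, against 12.6% of all genes tested. The number was 0 without control mouse 2 or 3 or tRA mouse 2, 3 or 4. In these settings the share of all genes tested was 6.78%, 5.44%, 4.55%, 5.21% and 3.93%. Slbp, which binds the stem-loop, had 68.8, 70.6, 83 and 64.7 CPM in controls and 73, 68.2, 60.8 and 64.1 CPM with tRA, with overlapping groups and a log2 fold change of -0.11 (standard error 0.0894), or -0.04 without control mouse 3. Lsm11, a component of the U7 particle that cuts histone pre-mRNA, had 14.2, 11.6, 9.74 and 12.9 CPM in controls and 13.5, 13.8, 17.2 and 15 CPM with tRA. The highest control mouse lay among the tRA mice, and the log2 fold change was 0.30 (0.20 without control mouse 3) with a standard error of 0.13 and an adjusted p of 0.757 in edgeR's quasi-likelihood test (Benjamini-Hochberg). Its partner Lsm10 stood at 0.03 (standard error 0.114), from -0.04 without control mouse 4 to 0.08 without control mouse 2. Npat, the coactivator of histone transcription, had a log2 fold change of 0.10 (standard error 0.0895; 0.03 without control mouse 3) and Casp8ap2, which takes part in histone mRNA processing, -0.01 (standard error 0.0933), turning to 0.02 with library size alone and ranging from -0.07 without tRA mouse 4 to 0.05 without tRA mouse 3. The histone chaperone Nasp had -0.18 (standard error 0.132), from -0.31 without tRA mouse 1 to -0.10 without tRA mouse 3. Hat1, which acetylates new H4, had -0.06 (standard error 0.106), from -0.11 without control mouse 2 to 0.04 without control mouse 3. Srrt, the most abundant gene of the list, was at 418 ± 14.3 CPM in controls and 418 ± 7.89 CPM with tRA.

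Many replication-independent histone genes give polyadenylated mRNA in both cycling and resting cells. Of 14 on the list, 9 were tested, all 9 had a negative log2 fold change, with a median of -0.224, and 3 (33.3%, against 6.49% of all genes tested), H2afj, H1f0 and H2afx, had an unadjusted p under 0.05, each with an adjusted p of 0.757 in edgeR's quasi-likelihood test (Benjamini-Hochberg). With library size alone 1 of the 9 turned positive. Leaving out control mouse 1 gave 2 positive, and leaving out control mouse 2, control mouse 4 or tRA mouse 4 gave 1. Without tRA mouse 1 the median was -0.341 with 6 (66.7%, all genes 12.6%) at an unadjusted p under 0.05. Without tRA mouse 3 it was -0.128 with 3 (33.3%, all genes 5.21%). H3f3b, which encodes H3.3 and is the most abundant, had 1091, 965, 1026 and 740.4 CPM in controls and 1044, 792, 499 and 596 CPM with tRA. As with Hist1h1c, tRA mouse 1 lay among the controls and tRA mouse 3 was the lowest of all (log2 fold change -0.38, standard error 0.207, unadjusted p 0.091 in edgeR's test). It was -0.60 without tRA mouse 1 and -0.24 without tRA mouse 3. H3f3a, the other H3.3 gene, had -0.10 (standard error 0.126), from -0.21 without control mouse 3 to 0.02 without control mouse 1. H2afz had 113, 116, 126 and 105 CPM in controls and 126, 103, 77.8 and 85.9 CPM with tRA, again with tRA mouse 3 lowest and tRA mouse 1 as high as the highest control. Its log2 fold change of -0.22 was -0.37 without tRA mouse 1 and -0.13 without tRA mouse 3. H2afx, whose mRNA can also end at a stem-loop, had 43.1, 42.5, 42.4 and 38 CPM in controls and 40.7, 33.3, 32.1 and 30.2 CPM with tRA. For H2afx, all tRA mice except tRA mouse 1 lay below every control mouse, and the log2 fold change was -0.28 with a standard error of 0.0966. The whole list summed to 1880, 1710, 1752 and 1450 CPM in controls and 1792, 1488, 1126 and 1267 CPM with tRA.

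Genes of S phase and proliferation were read beside the histone genes. Of 40 tested, 15 had a positive and 25 a negative log2 fold change, with a median of -0.034, and 4 (10%, against 6.49% over all genes) had an unadjusted p under 0.05: Ccne2 higher, and Dut, Mcm3 and Cdt1 lower with tRA. Mki67, the Ki-67 antigen of dividing cells, had 41.3, 72.6, 58.2 and 66.4 CPM in controls and 35.6, 51.7, 113 and 55.5 CPM with tRA. In tRA mouse 3, where the summed histone level was lowest, Mki67 was the highest of the 8 mice. Top2a, a topoisomerase of dividing cells, had 23.9, 29.3, 23.5 and 33.9 CPM in controls and 18.2, 23.1, 40.2 and 23.1 CPM with tRA. Rrm2, a subunit of ribonucleotide reductase, had 14.6, 19.8, 17 and 16.3 CPM in controls and 13, 14, 25.6 and 14.9 CPM with tRA. Both were highest in tRA mouse 3. Pcna, the most abundant gene of the list and the clamp of the replication fork, had instead 147, 158, 158 and 140.4 CPM in controls and 158, 146, 102 and 111 CPM with tRA, lowest in tRA mouse 3. The log2 fold changes were 0.10 for Mki67, -0.08 for Top2a, -0.00 for Rrm2 and -0.23 for Pcna, with standard errors of 0.301, 0.218, 0.2 and 0.128. Rrm2 was at 0.04 with library size alone. Without tRA mouse 3, Mki67, Top2a, Rrm2 and Pcna were at -0.33, -0.37, -0.28 and -0.13, and without tRA mouse 1 at 0.30, 0.06, 0.11 and -0.34. Without tRA mouse 3 the list had 34 of 40 negative, a median of -0.158 and 12 genes (30%, against 5.21% of all genes tested) at an unadjusted p under 0.05, all lower. Without tRA mouse 1 it had 22 positive, a median of 0.012 and 4 such genes (10%, all genes 12.6%).

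Other RNAs that lack a poly(A) tail were read as a measure of how much of such RNA entered the libraries. Of 2953 genes of this kind (snRNAs, snoRNAs, scaRNAs and 11 named RNAs), 2219 were at 0 and 109 were tested, with 50 positive and 59 negative log2 fold changes, a median of -0.024 and 8 (7.34%, against 6.49% of all genes tested) at an unadjusted p under 0.05, 4 in each direction. The genes tested differ between settings. The median ran from -0.098 without tRA mouse 2 (120 genes) to 0.022 without tRA mouse 3 (119 genes, 63 positive), and it was -0.121 over the 63 genes with at least 10 counts in every library and 0.004 with library size alone. The share at an unadjusted p under 0.05 ran from 2.52% without tRA mouse 3 to 12.8% without tRA mouse 1, where it was 5.21% and 12.6% of all genes tested. Their sum was 160.1, 168, 154 and 166 CPM in controls and 156, 166, 128 and 144 CPM with tRA, again lowest in tRA mouse 3. The most abundant was Snora31 at 19.9 CPM in controls and 15.4 CPM with tRA, and many snoRNAs lie in introns of other genes. The part of such RNA in the histone values was not tested.

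The cell makeup of the samples was read from marker lists. All 6 B cell markers were present, summing to 5882 ± 472 CPM in controls and 5916 ± 77.4 CPM with tRA, with Cd79a the most abundant. The 7 T cell markers, led by Lck, summed to 1445 ± 165 and 1503 ± 29.7 CPM. For B cell markers 4 of 6 log2 fold changes were positive (median 0.025), and for T cell markers 5 of 7 (median 0.108). For 7 germinal centre B cell markers tested, led by Bcl6, 5 were positive with a median of 0.052, and 1 (14.3%), S1pr2, was higher at an unadjusted p under 0.05, against 2.94% of all genes tested. For 8 plasma cell markers, led by Jchain, 5 were negative with a median of -0.244, and 4 (50%) were lower at an unadjusted p under 0.05, against 3.55% of all genes tested. The plasma cell markers summed to 1084, 1041, 1059 and 1251 CPM in controls and 955, 1085, 824 and 833 CPM with tRA, with tRA mouse 2 among the controls. Of 4 megakaryocyte markers tested, led by Itga2b, 3 were negative with a median of -0.230, and of 6 progenitor markers, led by Myb, 4 were negative with a median of -0.011. With 1 mouse left out, these medians ran from -0.035 (without control mouse 4) to 0.066 for B cells, from 0.009 (without control mouse 1) to 0.185 for T cells and from 0.039 to 0.161 (without tRA mouse 3) for germinal centre B cells. They ran from -0.274 to -0.205 for plasma cells, from -0.612 (without control mouse 4, with 5 genes tested in place of 4) to -0.061 (without control mouse 3) for megakaryocytes and from -0.127 (without tRA mouse 3) to 0.038 (without tRA mouse 1) for progenitors. None of these markers was at 0, and no list had a gene with an adjusted p under 0.1 in edgeR's test.

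The 16 erythroblast markers summed to 1032, 1845, 2667 and 657 CPM in controls and 2482, 824, 3956 and 779.8 CPM with tRA, led by the globin gene Hbb-bs. The highest sum was in tRA mouse 3 and the lowest in control mouse 4, and the groups overlapped. Their log2 fold changes were positive for 10 of 16 genes, with a median of 0.061. Without tRA mouse 3, 15 of 16 were negative, with a median of -0.401, and without control mouse 2 13 were positive, with a median of 0.328. The study's methods name a lysis of red blood cells when splenocytes were isolated, which bears on these globin-led sums. The 12 neutrophil precursor markers summed to 559, 707, 746 and 640.3 CPM in controls and 254, 318, 349 and 497 CPM with tRA, so that each tRA mouse lay below each control mouse. All 12 were negative, with a median of -0.872, and 11 (91.7%, against 6.49% over all genes) had an unadjusted p under 0.05, while 0 had an adjusted p under 0.1 in edgeR's test and the lowest was 0.135, for Camp. Camp, Ngp and Ltf of this list are among the genes that the study reported as changed in these libraries. The share of the list is therefore not independent of these data. Other settings called 4 (DESeq2), 3 (no filter), 1 (limma-voom) and 3 (without tRA mouse 4) of the 12. Over all genes fitted, the same settings called 27 of 29817, 6 of 29817, 1 of 16484 and 3 of 16732. DESeq2 left some of its fitted genes without an adjusted p. Ngp, the most abundant, had a log2 fold change of -0.92, with an adjusted p of 0.757 in edgeR's quasi-likelihood test and of 0.00112 in DESeq2, both with Benjamini-Hochberg adjustment. None of the erythroblast or neutrophil precursor markers was at 0. The part of either cell type in the histone values was not tested.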

How the data were processed

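The values are counts per gene as deposited by the authors, for 8 libraries. The labels name STAR 2.5.2b, featureCounts 1.5.1, DESeq2 1.26.0 and GRCm38, while the methods text names TopHat2 and HTSeq. The sources do not state whether the libraries carry strand. The deposited DESeq2 comparison (the authors' fold changes and p-values) was not used. Of the identifiers, 193 have no entry in GENCODE M21. The counts were tested with edgeR 4.0.16 in R 4.3.3 (filterByExpr, TMM, quasi-likelihood, Benjamini-Hochberg over all genes tested, called under 0.1), with a common biological coefficient of variation of 0.152. The alternatives were RLE, library size alone, no filter, at least 10 counts in every library, DESeq2 1.42.0, limma-voom (limma 3.58.1), a replicate block and leaving out each mouse. The procedure was tested on simulated data with planted fold changes, all larger than those of the members tested. That simulation does not show how well changes of the members' size are found. P-values weigh the difference between the groups against the spread between mice. Standard deviations are over 4 mice.

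Named by rule were, per type, the 2 members with highest CPM per kilobase, any member called, the 3 lowest p in each direction, Slbp, Npat, Casp8ap2, Lsm10, Lsm11, Nasp, Hat1, H3f3a, H3f3b, H2afz, H2afx, Mki67, Top2a, Pcna, Rrm2, and the most abundant gene of every other list. Other genes named, the sums without Hist1h1c or Hist3h2a and the limits on annotated ends were chosen after values were seen. The members and lists were chosen with earlier results of these data known. Sequences come from GENCODE M21 and RefSeq, read with Python 3.11.15.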

Additional observations from a re-analysis of the deposited data

Results flagged for a closer look

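A mouse was marked where it lay far from the other 3 of its group (Dixon's test). Of 128 groups of 4 mice examined, 7 were marked, and about 1 in 20 groups, or 6.4 here, are marked by chance. Among histone genes, Hist1h2be had 3.45 CPM in tRA mouse 4 against 2.55, 2.58 and 2.69. The summed level without Hist1h1c was 26.8 CPM in tRA mouse 3 against 33.2, 34 and 34.1, and that of members with short annotated ends was 3.39 CPM in the same mouse against 4.37, 4.44 and 4.55. Rrm2 had 25.6 CPM in tRA mouse 3 against 13, 14 and 14.9. H2afx had 38 CPM in control mouse 4 against 42.4, 42.5 and 43.1. Lck had 568 CPM in tRA mouse 1 against 477, 486 and 491, and the B cell markers summed to 5800 CPM in tRA mouse 4 against 5951, 5954 and 5959. The cause of these values was not tested.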

How the results depend on the processing

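Under every alternative, 0 histone genes were called at an adjusted p under 0.1. With DESeq2 the 10 H3 members fitted had no adjusted p, so for these the outcome was fixed. The number of members at an unadjusted p under 0.05, 0 in the fit used, was 4 with no filter (Hist1h1c, Hist1h4d, Hist1h4j and Hist3h2a), 2 with DESeq2 and 2 with limma-voom (both Hist1h1c and Hist3h2a), and 0 to 3 with 1 mouse left out: 2, 1, 1 and 2 without control mice 1 to 4, and 3, 0, 1 and 1 without tRA mice 1 to 4. As shares, members against all genes tested, these were 7.27% and 5.34% with no filter, 3.64% and 4.18% with DESeq2, 9.09% and 6.75% with limma-voom, 8.7% and 5.25%, 4.35% and 6.78%, 4.76% and 5.44%, and 8.33% and 6.35% without control mice 1 to 4, and 13% and 12.6%, 0% and 4.55%, 4.35% and 5.21%, and 4.17% and 3.93% without tRA mice 1 to 4. Over all genes, the number called, 0 in the fit used, was 6 with no filter, 27 with DESeq2, 1 with limma-voom and 0 to 3 with 1 mouse left out (3 without tRA mouse 4). Members with a positive log2 fold change, 5 in the fit used, were 16 with no filter and 16 with DESeq2, where 55 members were fitted. They were 2 with at least 10 counts in every library, where 14 were tested. With 1 mouse left out they were 3 to 8 (3 without control mouse 1, 8 without tRA mouse 3 and 3 without tRA mouse 4). Negative members, 17 in the fit used, were 39 with no filter, 39 with DESeq2 and 15 to 21 with 1 mouse left out. The changed numbers of members tested follow from the filters, and the cause of the other shifts was not tested. The median over members, -0.20, was negative under every alternative and -0.31 to -0.08 with 1 mouse left out. Ngp was called with no filter (adjusted p 0.0321), with DESeq2 (0.00112) and without tRA mouse 4 (0.0525), and the cause was not tested.

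With the replicate number of the labels as a block, 2 members (Hist1h1c and Hist3h2a) had an unadjusted p under 0.05 (9.09%, against 7.28% of all genes tested) and 0 were called. Of the 30 processing factors, 0 had such a p with the block, against 1 without it. The correlations of same-numbered mice were 0.157, -0.0229, -0.014 and 0.259, and only tRA mouse 4 correlated best with the control of its own number, so the numbers were not taken as pairs.

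With library size alone, the median over all genes tested was 0.031 and over the members -0.177, and the genes at an unadjusted p under 0.05 were 657 higher and 501 lower, against 485 higher and 585 lower with TMM. Of the 65 members, 44 had a mean under 10 counts per library, and low counts went with shared sequence and short annotated ends. The part of sequencing depth in this was not tested.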
